A study of Mus musculus with 9 samples.

Results

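The right atrium of mice that lost COUP-TFII in their heart muscle cells was compared with the right atrium of floxed controls, on 6 of the 9 arrays of the study. The 6 arrays were chosen by their labels alone. The 3 mutant arrays hold right atria of the genotype Myh6-cre; COUP-TFIIflox/flox. The 3 control arrays hold right atria of the genotype COUP-TFIIflox/flox, which carry the same floxed gene but no Cre. The other 3 arrays hold ventricles of COUP-TFIIflox/flox controls, whose levels are given beside the atria without a test. All animals were 2 months old and of the C57BL/6 background. The labels call the replicates biological, but do not say whether an array holds 1 animal or several. The p-values then measure the spread between these RNA samples. The Myh6 promoter drives Cre in cardiomyocytes, so other cells of the atrium keep the gene. Since no control carries Cre, an effect of Cre itself and the loss of COUP-TFII cannot be told apart.

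COUP-TFII, encoded by Nr2f2, is an orphan nuclear receptor that binds DNA at repeats of a short core motif and can repress or activate its targets. In the heart it is found in atrial rather than ventricular muscle, and also in veins, lymphatic vessels and the mesothelial cells that cover organs. Atrial and ventricular muscle differ in contractile proteins, ion channels and gap junctions, and in secreted hormones. The comparison asks which transcripts of the adult right atrium depend on the receptor in myocytes.

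Levels are log2 intensities of 1 probe set per gene, and differences are mutant minus control right atrium on the log2 scale, ± SE from a limma model with 3 arrays per group. A gene is called risen or fallen at an adjusted p under 0.05. Levels under 5.39, the lower quartile of all gene values, are called near background, and a difference from such a level is a lower bound. Levels close to the array's highest value of 15.11 also compress differences. Of 18193 genes, 3192 were called (17.5%), 1411 risen (7.76%) and 1781 fallen (9.79%). With each array centred on its median the split was 1751 risen and 1448 fallen. A rise of at least 2-fold was found for 162 genes (0.89%) and such a fall for 242 (1.33%). The 3 mutant and 3 control arrays did not overlap for 6878 genes (37.8%). Precision is limited by the number of arrays.

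Some features set arrays apart. The 37 measured hepatocyte markers had a mean log2 level of 8.56, 7.84 and 6.57 in control atrium replicates 1, 2 and 3, against 5.40 to 5.43 in the mutant atria and 5.24 to 5.36 in the ventricles. The control atria thus held a graded liver signal, and the summed intensity of these markers ranged from 11706 to 32179 in them and from 6720 to 8549 in the mutant atria. The defining liver markers Alb, Serpina1c and Fabp1 were near background in every mutant atrium.

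Sex-linked transcripts also varied within groups. Xist, the RNA that coats the inactive X chromosome, was at 12.73, 8.55 and 10.91 in the control atria and at 12.48, 6.73 and 6.48 in the mutant atria. Eif2s3y, a Y-linked translation factor, was at 6.35, 9.97 and 9.53 in the control atria and at 3.90, 10.01 and 10.05 in the mutant atria. Mutant replicate 1 had high Xist and low Eif2s3y and the other mutants the reverse, while every control atrium had more Xist than those 2 mutants and more Eif2s3y than mutant replicate 1. The difference between 3' and 5' probe sets of Gapdh, a sign of RNA quality, was 0.345 to 0.364 in control and 0.214 to 0.304 in mutant atria. The part of RNA quality in the results was not tested.

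Each call was therefore also made with the hepatocyte level as a covariate and with control replicate 3, the array lowest in liver markers, as the only control atrium. The covariate is almost the same as the group difference. With it the median SE was 0.183 in place of 0.0879, and 168 genes were called. With control replicate 3 alone, 755 genes were called. Of the 141 called genes named here, 43 were called with the covariate and 114 with control replicate 3 alone. These are named group by group. Mutant and control atrium arrays did not overlap for any of the 141, which the way they were chosen largely fixed.

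**Figure D1:**
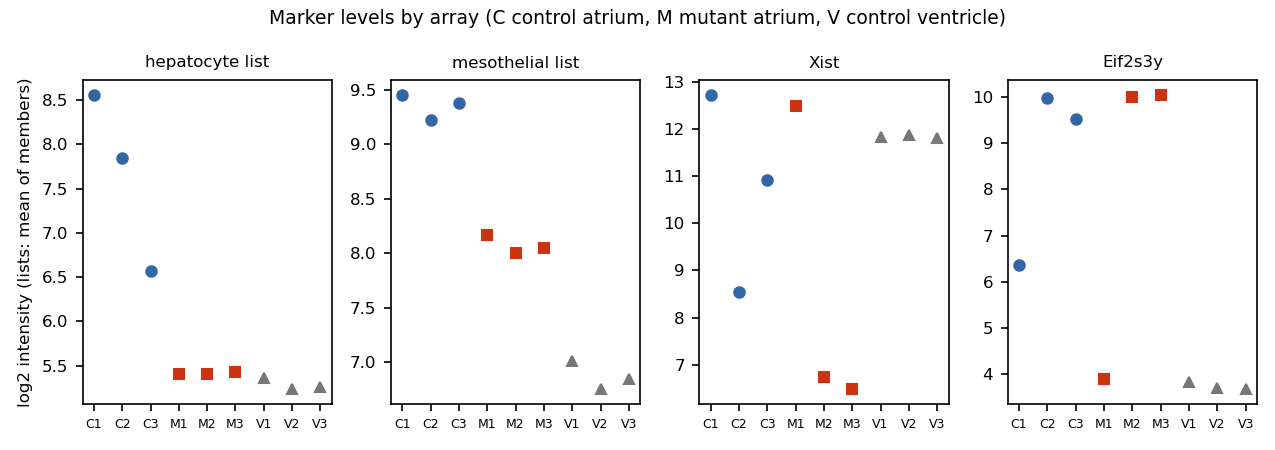
Mean log2 intensity of the hepatocyte and mesothelial lists and the log2 intensity of Xist and Eif2s3y on each of the 9 arrays. The hepatocyte level falls from 8.56 to 6.57 over the control atria and lies at 5.40 to 5.43 in the mutant atria. The mesothelial level lies at 9.22 to 9.45 in the control atria and 8.0 to 8.17 in the mutant atria.

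The deleted gene was checked first. Its probe set with the highest mean read 6.82, 6.62 and 6.82 in the mutant atria and 7.53, 7.66 and 7.29 in the control atria. The groups did not overlap, and the difference of -0.74 ± 0.15 passed (adjusted p = 0.0109). Another probe set of Nr2f2, 1444229_at, read 5.06, 5.26 and 5.26 in the mutants against 6.81, 6.02 and 6.34 in the controls, so that the mutant level was near background there. Of the gene's other 4 probe sets, 1416159_at and 1416160_at fell by 1.29 ± 0.13 and 0.77 ± 0.11. The probe set 1416158_at was at 7.13, 6.96 and 7.22 against 7.66, 7.72 and 7.38, a difference of -0.48 ± 0.18 that did not pass (adjusted p = 0.108), and 1431237_at differed by 0.14 ± 0.11 (adjusted p = 0.46). So 4 of 6 probe sets fell and 2 did not pass. The exons removed by the floxed allele are not given in the sources used here, so a probe set outside them checks nothing. In bulk tissue, fewer cells of a type and less RNA per cell cannot be told apart, and here the transcript of cells without Cre is measured together with that of the myocytes.

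The close relative Nr2f1, also a COUP-TF, read 8.93, 8.24 and 8.85 in the mutant atria and 9.69, 9.81 and 9.52 in the control atria. It fell by 1.00 ± 0.16 (adjusted p = 0.00353), with all mutants below all controls. Nr2f6, the third member of the family, was at 8.92 to 9.01 and 8.81 to 8.88, a difference of 0.13 ± 0.06 that did not pass (adjusted p = 0.143). With control replicate 3 alone or with the covariate, neither Nr2f2 nor Nr2f1 kept its call.

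The promoters of genes at both ends of the comparison were searched for the receptor's core motif, AGGTCA, on both strands. Shown are 3 of the 5 searched genes, with core motifs in capitals: Thbs4 with the largest rise, Myl2 of the ventricular myosin, and Gadl1 with the largest fall outside the liver transcripts. Each runs 5′ to 3′ from 250 bases before the start, over 300 bases, from RefSeq on build GRCm38.p6. Gadl1 lies at chr9:115909205-115909504 on the plus strand, the second listed start of Myl2 at chr5:122092939-122093238 on the plus strand, and Thbs4 at chr13:92794769-92795068 on the minus strand.
Gadl1: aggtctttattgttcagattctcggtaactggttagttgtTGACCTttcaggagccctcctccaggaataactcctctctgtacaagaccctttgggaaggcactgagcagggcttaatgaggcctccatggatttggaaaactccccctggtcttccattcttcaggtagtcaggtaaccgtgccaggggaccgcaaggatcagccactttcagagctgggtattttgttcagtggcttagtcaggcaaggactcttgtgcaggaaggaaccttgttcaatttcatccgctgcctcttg
Myl2: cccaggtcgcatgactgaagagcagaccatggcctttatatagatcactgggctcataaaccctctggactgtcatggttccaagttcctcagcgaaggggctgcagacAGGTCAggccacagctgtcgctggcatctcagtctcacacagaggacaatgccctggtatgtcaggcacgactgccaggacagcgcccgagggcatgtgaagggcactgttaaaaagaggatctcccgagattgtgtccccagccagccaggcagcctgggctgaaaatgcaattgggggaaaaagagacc
Thbs4: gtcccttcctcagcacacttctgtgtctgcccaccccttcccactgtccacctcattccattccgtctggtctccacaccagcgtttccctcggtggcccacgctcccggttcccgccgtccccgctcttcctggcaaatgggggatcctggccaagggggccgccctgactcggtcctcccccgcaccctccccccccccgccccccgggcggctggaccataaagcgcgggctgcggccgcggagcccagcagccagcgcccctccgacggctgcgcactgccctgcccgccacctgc
Gadl1 held 1 core motif beginning 210 bases before its start, written there as its complement TGACCT, and this start of Myl2 held 1 beginning 141 bases before it. The windows of Thbs4, Slit2, Hamp and the other start of Myl2 held none. AGGTCA was found in 5340 of 32851 promoters of this length (16.3%), and its direct repeat with 1 base between, AGGTCANAGGTCA, in 13 (0.0396%) but in none of these 5 genes. The E-box CANNTG was found in 72.3% of promoters and in the windows of Thbs4, Hamp and both starts of Myl2. These matches describe letters in these windows and show no binding.

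The contractile proteins changed in both directions. Of 37 measured genes of the thick and thin filament, 8 rose and 4 fell, with a median difference of 0.03, equal to that of all genes (0.03). Their shares were 21.6% risen and 10.8% fallen, beside 7.76% and 9.79% of all genes. Myl2, the regulatory light chain typical of ventricular myosin, was at 14.87, 14.93 and 14.77 in the mutant atria and 10.50, 11.66 and 10.97 in the control atria. Its mutant level was near the array's top and close to the ventricles' 15.00 to 15.02, so the rise of 3.81 ± 0.23 is a lower bound (adjusted p = 1.09e-05). The essential light chain Myl3 went from 11.53 to 11.86 in the controls to 14.46 to 14.70 in the mutants, a rise of 2.82 ± 0.10 (adjusted p = 4.11e-07).

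Myh7, a heavy chain of slow myosin, read 11.96, 12.24 and 12.03 in the mutants against 8.5, 8.44 and 8.55 in the controls. All 3 mutants lay above the ventricles, which read 11.01, 10.57 and 11.64, and the rise was 3.58 ± 0.22 (adjusted p = 1.28e-05). Tnnt1, the troponin T of slow skeletal muscle, was at 11.10, 11.47 and 10.79 against 8.49, 8.58 and 8.5, and again above the ventricles at 9.14 to 9.57. It rose by 2.60 ± 0.16 (adjusted p = 1.37e-05). In the other direction, the beta-tropomyosin gene Tpm2 was at 9.96, 9.76 and 9.97 against 11.70, 11.91 and 11.87. It fell by 1.93 ± 0.16 (adjusted p = 8.34e-05), which brought it into the ventricles' range of 9.72 to 10.47.

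The atrial light chains did not pass on the probe sets used. Myl7 was at 13.89, 12.67 and 14.12 in the mutants and at 14.89 to 14.95 in the controls, a difference of -1.35 ± 0.57 (adjusted p = 0.136) with mutant replicate 2 lowest. Myl4 was at 14.37, 14.15 and 14.56 against 14.82 to 14.86, a difference of -0.49 ± 0.49 (adjusted p = 0.526). Its second probe set, 1457126_at, fell by 1.71 (adjusted p = 6.57e-05 over every probe set), and the mean of both differed by -1.10 (adjusted p = 0.0233). In a fit of the atria alone both passed (adjusted p = 0.04 and 0.0222), the ventricles' wide spread for these genes being left out there. Both remained far above the ventricles, at 6.08 to 8.36 for Myl7 and 6.52 to 9.04 for Myl4. Myh6, the fast heavy chain whose promoter drives the Cre, was at 14.94 to 14.96 in the mutants and 14.96 to 14.99 in the controls, at the array's top. Myl2, Myl3, Myh7, Tnnt1 and Tpm2 kept their calls with both alternatives.

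Genes of calcium handling and of the Z-disc were called at shares not far from those over all genes, with members in both directions. Of 30 genes of calcium release and uptake 4 rose and 4 fell (13.3% each, median 0.02). Of 34 Z-disc and stretch-sensing genes 4 rose and 4 fell (11.8% each, median 0.03). Over all genes 7.76% rose and 9.79% fell. Without control replicate 2, 2 of the calcium genes fell. Tesc, a calcium-binding regulator of the sodium-proton exchanger, was at 11.54, 11.85 and 11.57 in the mutants against 7.68, 8.22 and 7.94 in the controls. That rise of 3.71 ± 0.13 (adjusted p = 4.11e-07) was the largest of these lists, and the ventricles stood at 12.27 to 12.30. Pln, the brake on the calcium pump of the sarcoplasmic reticulum, was at 14.47 to 14.56 against 13.91 to 13.96. Fhl2, a LIM protein of the Z-disc, was at 13.89, 13.98 and 13.94 against 12.73, 12.67 and 12.60, a rise of 1.27 ± 0.06 (adjusted p = 2.4e-06).

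Other members fell. Ryr3, a minor ryanodine receptor, was at 7.67, 8.16 and 8.78 in the mutants and 10.24 to 10.32 in the controls, a difference of -2.07 ± 0.22 (adjusted p = 0.000309). All mutants lay below the controls, yet above the ventricles at 5.64 to 5.74. The LIM protein Pdlim4 fell by 1.64 ± 0.10 (adjusted p = 1.42e-05), and Slc8a1, the sodium-calcium exchanger, by 0.68 ± 0.14 (adjusted p = 0.0125). Tesc, Fhl2 and Pdlim4 kept their calls with the covariate, and with control replicate 3 alone only Slc8a1 of these genes lost its call.

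Ion channels shifted in both directions. Of 51 potassium channel genes 11 rose and 6 fell (median 0.15), and of 29 sodium, calcium and pacemaker channel genes 10 rose and 6 fell (median 0.17). These are 21.6% risen and 11.8% fallen, and 34.5% and 20.7%, beside 7.76% risen and 9.79% fallen over all genes. Of the potassium channels 7 rose without control replicate 2 or mutant replicate 2, and 2 fell without any 1 of control replicates 1, 2 and 3 and mutant replicates 2 and 3, or 3 with median centring. Of the other channels 5 rose without mutant replicate 3 and 6 without control replicate 1 or mutant replicate 2. Kcne1l, a small channel subunit, was at 10.53, 6.69 and 9.92 in the mutants against 4.41 to 4.61 in the controls, which is near background. The rise of 4.51 ± 0.78 (adjusted p = 0.00442) was uneven, since mutant replicate 2 lay far below the other mutants. Abcc9, the sulphonylurea subunit of the muscle ATP-sensitive potassium channel and also on the pericyte list, was at 11.92, 12.22 and 11.64 against 10.50, 10.37 and 10.34 and rose by 1.52 ± 0.13 (adjusted p = 7.96e-05). The slow-delayed-rectifier subunit Kcne1 rose by 0.98 ± 0.14, Kcnip2, the subunit of the transient outward current, by 0.72 ± 0.12, and the stretch-sensitive channel gene Kcnk2 by 0.46 ± 0.07 from a level near background. All mutants were below all ventricles for these 3 genes.

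The channel of the muscarinic potassium current in atrial muscle went the other way. Its subunit Kcnj5 was at 10.57, 10.26 and 10.64 in the mutants against 11.25, 11.40 and 11.31 in the controls, and at 9.47 to 9.61 in the ventricles. It fell by 0.83 ± 0.10 (adjusted p = 0.000638). The L-type calcium channels split. Cacna1c, the main channel of working muscle, was at 9.94, 10.39 and 10.25 against 9.26, 9.41 and 9.25, a rise of 0.89 ± 0.13 (adjusted p = 0.00177), while Cacna1d, used in atrial and nodal cells, was at 6.97, 6.64 and 6.95 against 7.45, 7.74 and 7.67, a difference of -0.77 ± 0.10 (adjusted p = 0.00128). In both cases the mutants lay between control atria and ventricles.

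Fgf13, which binds sodium channels inside the cell, was at 11.61 to 11.76 against 10.94 to 10.99 and rose by 0.69 ± 0.08 (adjusted p = 0.000373). The auxiliary calcium channel subunit Cacna2d3 fell by 0.99 ± 0.16 (adjusted p = 0.0033) and the calcium-activated chloride channel Ano1 by 0.90 ± 0.14 (adjusted p = 0.00262). Of the channel genes named, Abcc9 was called with the covariate. Kcne1l, Kcnip2, Kcnk2, Cacna2d3 and Ano1 lost their calls with control replicate 3 alone.

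Among 29 genes of gap junctions and the intercalated disc, 8 rose and 5 fell (median 0.11), with 5 risen without mutant replicate 3. The shares were 27.6% risen and 17.2% fallen, beside 7.76% and 9.79% of all genes. Gjc1, connexin 45 of the nodes and conduction system, was at 10.03, 10.29 and 10.18 in the mutants against 9.0, 8.96 and 8.92 in the controls and 9.27 to 9.45 in the ventricles. All mutants exceeded both control tissues, and the rise was 1.21 ± 0.08 (adjusted p = 2.05e-05). Gja5, connexin 40 of atrial muscle and the fast conduction system, was at 5.67, 5.40 and 5.44 against 6.85, 6.71 and 6.21, a difference of -1.09 ± 0.16 (adjusted p = 0.0019) to just above background. Gja4, connexin 37 of vessels, rose by 0.85 ± 0.13 (adjusted p = 0.00272), while Gja1, connexin 43 of working muscle, differed by -0.07 ± 0.08 (adjusted p = 0.53) at levels of 13.42 to 13.70. Popdc2, a membrane protein that binds cyclic AMP, was at 12.06 to 12.20 against 11.12 to 11.18 and rose by 0.98 ± 0.07 (adjusted p = 3.45e-05). Gjc1 and Popdc2 kept their calls with the covariate, and Gja4 lost its call with control replicate 3 alone.

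**Figure D2:**
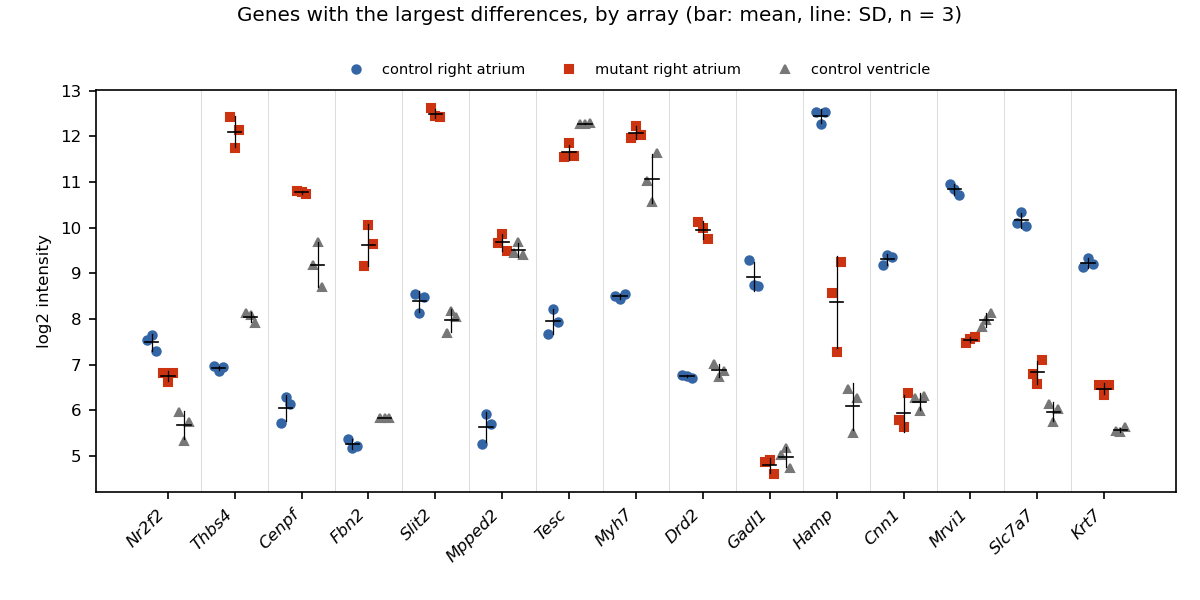
Log2 intensity of 15 genes on each array, with the mean (bar) and SD (line) of the 3 arrays of a group. For Thbs4, Fbn2, Slit2 and Drd2 the mutant atria lie above control atria and ventricles alike, for Mpped2 they lie with the ventricles, and for Gadl1, Cnn1 and Krt7 they lie far below the control atria.

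Among cell-surface receptors, Drd2 and Gpr22 were among the 15 largest rises of all genes and are on no list here. The dopamine receptor gene Drd2 was at 10.12, 9.99 and 9.75 in the mutant atria against 6.72 to 6.76 in the control atria and 6.73 to 7.01 in the ventricles. The rise of 3.21 ± 0.10 (adjusted p = 3.17e-07) placed the mutants above both control tissues. Gpr22, an orphan receptor of heart and brain, was at 9.72, 9.44 and 9.10 against 6.25, 6.36 and 5.96, a rise of 3.23 ± 0.15 (adjusted p = 2.1e-06), with the ventricles at 9.94 to 10.05. Of 38 listed autonomic and peptide receptor genes 3 rose and 6 fell, with 3 fallen without control replicate 1, 2 or 3. The risen share of 7.89% was near the 7.76% of all genes, and the fallen share was 15.8% beside 9.79%. Agtr1a, the angiotensin II receptor, rose by 1.13 ± 0.11 (adjusted p = 0.000252) and the nucleotide receptor gene P2ry2 by 1.10 ± 0.15 (adjusted p = 0.00143).

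Rxfp1, the relaxin receptor, was at 5.30, 4.26 and 5.20 in the mutants and 7.76, 7.80 and 7.60 in the controls. The difference of -2.80 ± 0.23 (adjusted p = 6.33e-05) is a lower bound, since the mutants were near background and close to the ventricles' 3.83 to 3.99. The endothelin B receptor Ednrb, also on the endocardial list, was at 8.88, 9.22 and 9.10 against 9.71, 10.12 and 9.87 and fell by 0.83 ± 0.13 (adjusted p = 0.00258). Drd2 and Gpr22 kept their calls with the covariate, and P2ry2 lost its call with control replicate 3 alone.

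Downstream of the receptors, 6 of 35 adenylyl cyclase and phosphodiesterase genes rose and 7 fell. These are 17.1% and 20%, beside 7.76% risen and 9.79% fallen over all genes. Adcy9, which makes cyclic AMP, was at 9.31, 9.43 and 9.34 in the mutants against 8.18, 8.23 and 8.0 in the controls, a rise of 1.22 ± 0.09 (adjusted p = 4.71e-05). The risen count was 3 without control replicate 1, mutant replicate 2 or mutant replicate 3, and the fallen count 4 without control replicate 1, control replicate 2 or mutant replicate 3. Gucy1a1 and Gucy1b1 encode the subunits of the nitric oxide receptor that makes cyclic GMP. Gucy1a1 was at 10.32, 9.98 and 9.91 against 11.30, 11.31 and 11.11 and fell by 1.17 ± 0.11 (adjusted p = 0.000174), and Gucy1b1 fell by 0.68 ± 0.09 (adjusted p = 0.000982). Pde9a, which degrades cyclic GMP, was at 6.91, 6.55 and 6.80 against 8.04, 7.93 and 7.85 and fell by 1.19 ± 0.09 (adjusted p = 5.52e-05). Mrvi1, which is on no list here, is a substrate of the cyclic GMP-dependent kinase on the calcium store and was at 7.48, 7.56 and 7.60 against 10.95, 10.85 and 10.72. It fell by 3.29 ± 0.09 (adjusted p = 1.93e-07), and every mutant was below the ventricles at 7.83 to 8.13. Pde7a, which degrades cyclic AMP, fell by 1.23 ± 0.20 (adjusted p = 0.003). Adcy9 and Mrvi1 kept their calls with the covariate, and Pde7a lost its call with control replicate 3 alone.

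Transcription factors of the heart changed often. Of 48 measured, 15 rose and 9 fell, a share of 31.2% risen beside 7.76% of all genes. The risen count was 8 without control replicate 1 and 9 without mutant replicate 2, 3 with control replicate 3 alone and 2 with the covariate. The Iroquois family led the rises. Irx3, a homeobox factor of the fast conduction system, was at 11.52, 11.95 and 11.51 in the mutants against 8.21, 8.11 and 8.27 in the controls, above the ventricles at 10.19 to 10.70. Irx5, its neighbour in the genome, with a role in ventricular repolarisation, was at 9.41, 10.05 and 9.46 against 7.11, 7.03 and 6.98, and also above the ventricles at 7.72 to 8.52. The rises were 3.46 ± 0.15 for Irx3 (adjusted p = 1.26e-06) and 2.60 ± 0.22 for Irx5 (adjusted p = 7.19e-05).

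Other Iroquois members rose by less. Irx2 was at 7.30, 8.26 and 7.0 against 5.43 to 5.79 (1.86 ± 0.30, adjusted p = 0.00339) and Irx1 at 6.60, 7.11 and 6.60 against 5.70 to 5.90 (0.96 ± 0.16, adjusted p = 0.00334). The ventricles were at 7.85 to 8.66 for Irx2, where mutant replicate 2 reached their range, and at 7.5 to 7.93 for Irx1, above all mutants. Both were added after their values were seen, to complete the family. Irx4, which represses atrial genes in the ventricle, was at 5.31, 6.40 and 6.10 against 4.74 to 5.06, near background, with the ventricles far above at 8.82 to 9.16. Its rise of 0.99 ± 0.24 (adjusted p = 0.0207) was lost without mutant replicate 2 (adjusted p = 0.0615), mutant replicate 3 (0.0705) or control replicate 1 (0.0769). Mutant replicate 2 had the highest value of Irx1, Irx2, Irx3, Irx4 and Irx5 among the mutants.

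Tbx5, a T-box factor needed for atrial rhythm, was at 10.56, 10.24 and 10.49 in the mutants against 11.28, 11.39 and 11.21 in the controls and fell by 0.86 ± 0.09 (adjusted p = 0.000302). Its mutant level stayed above the ventricles at 8.78 to 8.89. Sall1, a zinc finger factor, was at 7.14, 6.73 and 6.94 against 8.15, 8.01 and 7.81 and fell by 1.05 ± 0.12 (adjusted p = 0.00052), where the ventricles were near background at 4.02 to 4.24. Hopx, a homeodomain protein without DNA binding, rose by 0.61 ± 0.07 (adjusted p = 0.000559). Irx3 and Irx5 kept their calls with the covariate, and Irx1, Irx2 and Irx4 lost theirs with control replicate 3 alone.

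Guidance molecules, which steer axons, vessels and migrating cells, changed in both directions. Of 68 genes 16 rose and 10 fell (median 0.09). The shares were 23.5% and 14.7%, beside 7.76% risen and 9.79% fallen over all genes. With the covariate 2 rose and none fell. Slit2, a secreted repellent read by Robo receptors, was at 12.62, 12.45 and 12.43 in the mutants against 8.55, 8.13 and 8.49 in the controls and 7.70 to 8.17 in the ventricles. All 3 of its probe sets rose, by 3.77 to 4.47, and the one used here by 4.11 ± 0.14 (adjusted p = 4.11e-07). The semaphorin Sema3a, which repels sympathetic axons, was at 10.02, 9.30 and 9.82 against 7.71, 7.80 and 7.62, with the ventricles at 6.5 to 6.95, and rose by 2.00 ± 0.18 (adjusted p = 0.000101). Both ligands were thus higher in the mutant atrium than in either control tissue.

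Their relative Sema3b was at 7.65, 8.17 and 7.48 against 6.39, 5.98 and 6.18 and rose by 1.58 ± 0.17 (adjusted p = 0.000304), to the ventricles' neighbourhood of 8.07 to 8.21. Among receptors, the semaphorin coreceptor Nrp1 rose by 0.71 ± 0.08 (adjusted p = 0.00061) and the plexin Plxnb2 by 0.65 ± 0.07 (adjusted p = 0.000436). The ephrin receptor gene Epha3 was at 5.65, 5.18 and 5.84 in the mutants against 8.43, 7.64 and 8.02 in the controls, a difference of -2.47 ± 0.20 (adjusted p = 7.07e-05), with the ventricles near background at 4.09 to 4.23. Slit2 and Nrp1 kept their calls with the covariate, and all 6 genes did with control replicate 3 alone.

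Matrix transcripts held some of the largest rises. Of 22 elastic fibre and microfibril genes 7 rose and 1 fell (31.8% and 4.55%, median 0.19). Of 42 collagens 5 rose and 1 fell (11.9% and 2.38%), with 2 risen without control replicate 1 or 2. Over all genes 7.76% rose and 9.79% fell. The summed intensity of the elastic fibre list overlapped, at 19939 to 22189 in the mutants and 20731 to 21693 in the controls. Fbn2, the fibrillin prominent in developing tissue, was at 9.16, 10.06 and 9.64 in the mutants against 5.38, 5.16 and 5.23 in the controls, near background, and 5.83 to 5.84 in the ventricles. The rise of at least 4.36 ± 0.18 (adjusted p = 1.09e-06) had no counterpart level in either control tissue. Mfap4, a microfibril protein, was at 9.49, 9.83 and 9.35 against 7.97 to 8.02 and rose by 1.56 ± 0.11 (adjusted p = 3.63e-05). Mfap5, another, rose by 0.55 ± 0.07 (adjusted p = 0.00106). The fibulin-family gene Efemp1 went down, from 11.75 to 12.02 in the controls to 10.55 to 10.69 in the mutants, by 1.23 ± 0.10 (adjusted p = 5.99e-05).

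Of 48 matricellular and proteoglycan genes 7 rose and 6 fell, with 4 risen without control replicate 3 and 3 fallen without control replicate 2. The shares of 14.6% and 12.5% were not far from the 7.76% and 9.79% of all genes. Thbs4, a thrombospondin that binds matrix and is induced in stressed muscle, was at 12.43, 11.75 and 12.14 in the mutants against 6.96, 6.87 and 6.95 in the controls. It had the largest rise of all genes at 5.18 ± 0.15 (adjusted p = 1.93e-07), and stood well above the ventricles at 7.92 to 8.14. The proteoglycan versican, Vcan, was at 9.72, 10.29 and 9.66 against 8.41, 8.42 and 8.67 and rose by 1.39 ± 0.16 (adjusted p = 0.000508). Ccn4, a secreted Wnt target, was at 7.91 to 7.93 against 9.24, 9.39 and 8.96 and fell by 1.27 ± 0.17 (adjusted p = 0.00138). Thbs4, Fbn2 and Mfap4 kept their calls with the covariate, and Ccn4 lost its call with control replicate 3 alone.

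Further large rises fell in no single group. Masp1, a protease that starts the lectin pathway of complement, was at 9.23, 9.32 and 9.41 in the mutants against 5.75, 6.13 and 5.37 in the controls, and above the ventricles at 8.11 to 8.66. It rose by 3.57 ± 0.19 (adjusted p = 6.37e-06). Cenpf, a protein of the kinetochore and the nuclear envelope, was at 10.80, 10.79 and 10.74 against 5.73, 6.28 and 6.13, and above the ventricles at 8.69 to 9.68. The rise was 4.73 ± 0.22 (adjusted p = 2.1e-06) on this probe set, 1.64 on 1452334_at (adjusted p = 1.2e-06) and 0.05 on 1458447_at (adjusted p = 0.736), so its probe sets disagreed in size. Over 58 kinetochore and cell cycle genes 8 rose and 2 fell (13.8% and 3.45%, median 0.13), with 3 risen without control replicate 1 or mutant replicate 2, 4 without control replicate 2 and 2 with control replicate 3 alone. The proliferation marker Mki67 was at 6.51 to 6.89 against 5.98 to 6.15, a rise of 0.61 ± 0.10 (adjusted p = 0.00397).

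Mpped2, a metallophosphoesterase, was at 9.67, 9.87 and 9.49 in the mutants against 5.27, 5.92 and 5.71 in the controls, within the ventricles' neighbourhood of 9.40 to 9.69. It rose by 4.04 ± 0.16 (adjusted p = 9.61e-07). Phlda1, a pleckstrin-domain protein induced by growth factors, was at 10.86, 12.15 and 11.91 against 8.16, 8.37 and 8.76, a rise of 3.21 ± 0.29 (adjusted p = 0.000116), and Fam81a was at 9.05, 9.59 and 8.82 against 5.89 to 6.05, a rise of 3.19 ± 0.18 (adjusted p = 8.45e-06). Masp1, Cenpf, Mpped2 and Fam81a kept their calls with the covariate, and Mki67 lost its call with control replicate 3 alone.

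Genes of fibroblast growth factor signalling and its feedback rose more often than they fell. Of 37 measured, 13 rose and 3 fell (median 0.14), or 35.1% and 8.11% beside 7.76% and 9.79% of all genes. Of the ligands, Fgf16, made by cardiomyocytes, was at 7.32, 8.28 and 7.86 in the mutants against 5.14, 5.91 and 5.33 in the controls, and rose by 2.36 ± 0.25 (adjusted p = 0.000355). Fgf1 was at 11.39 to 11.72 against 10.30 to 10.52 and rose by 1.14 ± 0.10 (adjusted p = 0.000124), and the EGF-family ligand Hbegf rose by 0.93 ± 0.12 (adjusted p = 0.00106). The mutant ranges of these 3 ligands overlapped those of the ventricles, at 7.70 to 8.11, 11.31 to 11.53 and 8.90 to 9.30.

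Of the transcripts induced by ERK kinase, the ETS factor Etv5 was at 9.34, 9.48 and 9.33 against 7.22, 7.49 and 7.31, with the ventricles at 7.32 to 7.47. The feedback inhibitor Spry4 was at 7.92, 9.05 and 7.98 against 6.24, 6.28 and 6.38, with the ventricles at 7.30 to 7.39. Both exceeded the ventricles in all mutants. The rises were 2.04 ± 0.08 for Etv5 (adjusted p = 1.09e-06) and 2.02 ± 0.25 for Spry4 (adjusted p = 0.000724). Etv5 kept its call with the covariate, and all 5 genes did with control replicate 3 alone.

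Wnt and BMP genes fell more often than they rose, as did all genes (9.79% fallen and 7.76% risen). Of 56 Wnt pathway genes 7 rose (12.5%) and 12 fell (21.4%), or 9 with either other scaling of the arrays, although the median was 0.05. Both Wnt shares were thus above those over all genes. Without control replicate 2 or mutant replicate 2, 7 fell, and the risen count was 3 to 5 without any 1 of the 6 atria. Rspo1 is also on the mesothelial list, of which 17 of 18 fell, and Dkk3 on the endocardial list, of which 4 of 18 fell, and the part of those cells was not tested. Sfrp5, a secreted Wnt antagonist of the inflow region, was at 6.87, 6.47 and 7.08 in the mutants against 9.22, 8.99 and 9.80 in the controls. It fell by 2.53 ± 0.20 (adjusted p = 6.31e-05), to near the ventricles' 6.49 to 6.66. Dkk3, a secreted glycoprotein of the Dickkopf family, was at 12.26, 11.81 and 12.32 against 13.41, 13.61 and 13.48, a difference of -1.37 ± 0.12 (adjusted p = 0.000124) that left it far above the ventricles at 6.5 to 6.64. Axin2, a direct target of canonical Wnt signals, was at 7.37, 7.31 and 7.15 against 8.23, 8.14 and 8.37 and fell by 0.97 ± 0.09 (adjusted p = 0.00011). The receptor Fzd7 fell by 0.75 ± 0.08 (adjusted p = 0.000233) and the Wnt agonist Rspo1 by 1.10 ± 0.14 (adjusted p = 0.00107). The fallen members thus included agonists, antagonists and a target.

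Of 51 BMP and TGF-beta genes 3 rose and 14 fell, 27.5% fallen beside 9.79% of all genes, with a median of -0.13. The ligand Bmp5 was at 6.77, 6.40 and 6.69 in the mutants against 8.67, 7.77 and 8.47 in the controls and fell by 1.68 ± 0.20 (adjusted p = 0.000667). The BMP antagonist Chrdl1 was at 7.33, 6.90 and 7.06 against 8.89, 8.46 and 8.42 and fell by 1.49 ± 0.16 (adjusted p = 0.000332). The decoy receptor Bambi fell by 0.72 ± 0.07 (adjusted p = 0.000289) and the common mediator Smad4 by 0.41 ± 0.06 (adjusted p = 0.00302). Of the Wnt and BMP genes named, Sfrp5 and Axin2 kept their calls with the covariate, and with control replicate 3 alone only Smad4 lost its call.

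**Figure D3:**
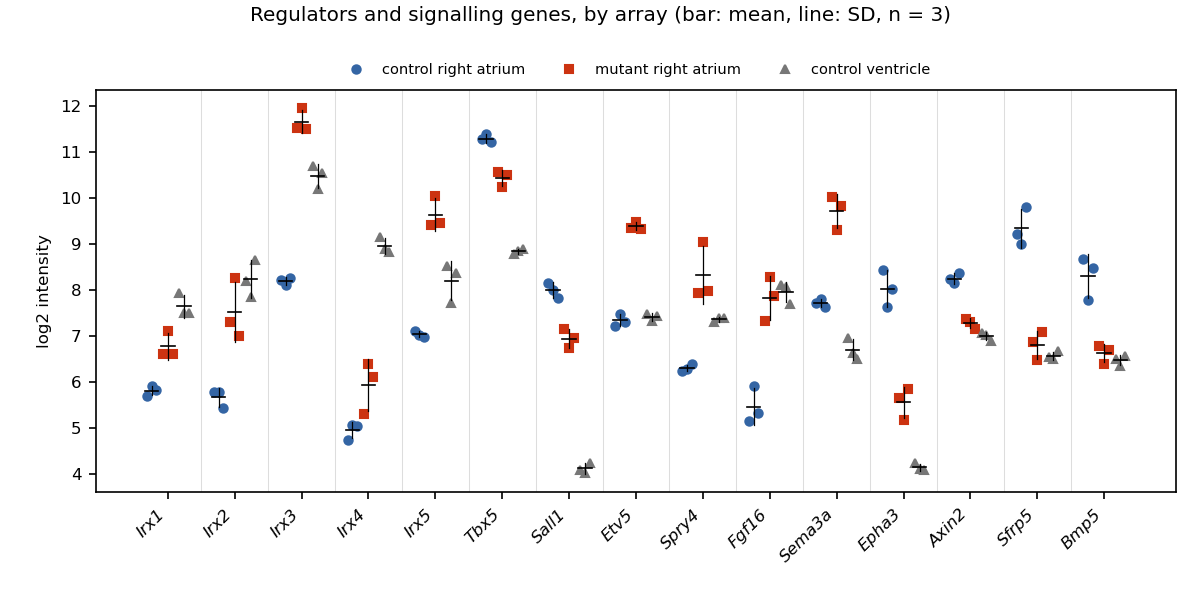
Log2 intensity of 15 regulator and signalling genes on each array, with the mean (bar) and SD (line) of the 3 arrays of a group. Irx3, Irx5, Etv5 and Sema3a lie higher in the mutant atria than in control atria and ventricles, while Sfrp5 and Bmp5 fall from the control atria to levels near the ventricles.

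Hepcidin transcripts fell in the mutant atrium and stayed above the ventricles. Hamp encodes hepcidin, the hormone that blocks iron export by ferroportin and is made in liver and in heart muscle. It was at 8.58, 7.27 and 9.25 in the mutants against 12.54, 12.26 and 12.54 in the controls, and at 5.51 to 6.47 in the ventricles. Control replicate 2 was lowest and replicates 1 and 3 were alike, which is not the order of the liver markers. The part of liver RNA in the fall of Hamp was not tested. Hamp fell by 4.08 ± 0.43 (adjusted p = 0.000315), and its second probe set by the same amount. Its near copy Hamp2 was at 8.30, 7.44 and 8.18 against 10.91, 10.58 and 10.86 and fell by 2.81 ± 0.19 (adjusted p = 2.46e-05). The probe sets of both genes could share signal, so the fall of Hamp2 is uncertain.

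Over 35 genes of hepcidin and iron handling 3 rose and 6 fell (median 0.08), with 5 risen without mutant replicate 1. The risen share of 8.57% was near the 7.76% of all genes, and the fallen share was 17.1% beside 9.79%. Cybrd1, a ferric reductase, was at 6.57, 6.34 and 6.57 in the mutants against 9.0, 8.78 and 8.71 in the controls and fell by 2.34 ± 0.15 (adjusted p = 1.58e-05). Slc39a8, an importer of zinc, iron and manganese, was at 9.78, 8.88 and 9.16 against 11.48, 12.02 and 11.54 and fell by 2.41 ± 0.23 (adjusted p = 0.000179). Hfe, an upstream regulator of hepcidin, rose from 9.27 to 9.45 in the controls to 10.63 to 10.99 in the mutants, by 1.44 ± 0.09 (adjusted p = 1.46e-05). Hamp2, Cybrd1 and Hfe kept their calls with the covariate, Hamp and Slc39a8 did not, and all 5 kept them with control replicate 3 alone.

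Gadl1, a decarboxylase of cysteine sulphinic acid and aspartate that can supply taurine or beta-alanine, was at 4.87, 4.91 and 4.61 in the mutants against 9.30, 8.75 and 8.73 in the controls. The mutants were near background, as were the ventricles at 4.75 to 5.18. Its difference of -4.13 ± 0.17 (adjusted p = 9.61e-07), a lower bound, was the largest fall outside the liver transcripts, and its other probe set fell by 1.52. Of 20 taurine and sulphur amino acid genes 3 rose and 4 fell, and 1 and 2 without control replicate 1 or mutant replicate 3. The taurine transporter Slc6a6 was at 12.33, 12.88 and 12.41 against 11.21, 11.43 and 11.24 and rose by 1.25 ± 0.14 (adjusted p = 0.000515), above the ventricles at 11.31 to 11.59. Cth, which makes cysteine, fell by 1.34 ± 0.22 (adjusted p = 0.00355) from controls that spanned 5.93 to 6.97 in the same order as the liver markers. The controls of Gadl1 stood in that order too, within 8.73 to 9.30. Gadl1 kept its call with the covariate.

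Cnn1, the smooth muscle calponin, was at 5.79, 5.63 and 6.38 in the mutants against 9.18, 9.40 and 9.36 in the controls and fell by 3.38 ± 0.18 (adjusted p = 4.84e-06). It was 1 of 3 fallen smooth muscle and pericyte markers of 20, with Tpm2 among the others, while 8 rose (median 0.25), or 5 without control replicate 1 or mutant replicate 2. Myh11, the smooth muscle myosin, rose by 0.70 ± 0.11 (adjusted p = 0.00297) and the pericyte proteoglycan Cspg4 by 0.92 ± 0.09 (adjusted p = 0.000266), while Acta2, smooth muscle actin, was at 12.88, 11.95 and 12.50 against 11.42 to 11.82 and did not pass (0.82 ± 0.32, adjusted p = 0.111). The summed intensity of the list was 28133 to 28879 in the mutants and 23342 to 25362 in the controls, and its part in these results was not tested.

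Slc7a7, a cationic amino acid transporter subunit, was at 6.80, 6.59 and 7.11 against 10.10, 10.34 and 10.04 and fell by 3.33 ± 0.15 (adjusted p = 1.54e-06). Cst9, a cystatin, was at 7.03, 5.06 and 7.46 against 10.51, 10.17 and 9.71 and fell by 3.61 ± 0.51 (adjusted p = 0.00165), with mutant replicate 2 lowest. Car3, a carbonic anhydrase abundant in fat and slow muscle, was at 6.72, 7.51 and 5.47 against 10.69, 9.45 and 10.69, and fell by 3.71 ± 0.61 (adjusted p = 0.00346). The fat marker Adipoq was likewise lowest in control replicate 2, at 7.49, 5.52 and 8.19, against 4.45, 5.17 and 4.23 in the mutants (-2.45 ± 0.62, adjusted p = 0.0252). It lost its call without mutant replicate 1 (adjusted p = 0.0619), mutant replicate 3 (0.0812), control replicate 1 (0.0883) or control replicate 3 (0.0627), and with an intensity trend (0.0675). Of 17 adipocyte markers 5 rose and 3 fell, with 3 risen without control replicate 1 or mutant replicate 1, and their summed intensity overlapped between mutants and controls, at 18293 to 20980 and 17951 to 19242. The part of fat in the fall of Car3 was not tested. Cnn1 and Slc7a7 kept their calls with the covariate, and Car3 and Cst9 lost theirs with control replicate 3 alone.

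The mesothelial genes fell almost as a whole. Of 18 markers of the cells that line the heart's surface, 17 fell and none rose, a share of 94.4% beside 9.79% of all genes, and the median was -1.15. With control replicate 3 as the only control 11 fell, and with the covariate 4. Krt7, an epithelial keratin, was at 6.55, 6.33 and 6.55 in the mutants against 9.13, 9.35 and 9.20 in the controls and fell by 2.75 ± 0.08 (adjusted p = 2.34e-07). Bnc1, a zinc finger factor of the mesothelium, was at 7.26, 7.26 and 7.31 against 9.42, 9.13 and 9.33 and fell by 2.02 ± 0.12 (adjusted p = 8.88e-06). The surface protein Upk3b was at 10.56, 10.23 and 10.44 against 12.16, 12.00 and 12.33 and fell by 1.75 ± 0.17 (adjusted p = 0.000166).

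The remaining keratins fell by similar amounts, Krt8 by 1.68 ± 0.16, Krt18 by 1.49 ± 0.14 and Krt19 by 1.64 ± 0.15, mesothelin (Msln) by 1.61 ± 0.20 and the claudin Cldn15 by 1.21 ± 0.10. All these markers were still above the ventricles in every mutant. The summed intensity of the list was 19503, 16591 and 19094 in the control atria, 9364, 7576 and 8132 in the mutant atria and 3064 to 3543 in the ventricles. Among the controls the sum was lowest in replicate 2, which is not the order of the liver markers. Any part of liver RNA in these falls was not tested. Krt7, Bnc1, Cldn15 and Krt19 kept their calls with the covariate. Mesothelial cells express Nr2f2 themselves, and their part in its fall was not tested.

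The liver transcripts made up many of the steepest falls and were not stable over the control arrays. Of 37 hepatocyte markers 28 fell and none rose, with a median of -2.40. Alb, albumin, was at 12.25, 10.81 and 8.73 in control replicates 1, 2 and 3 against 4.68 to 5.22 in the mutants, and Serpina1c, an alpha-1 antitrypsin, at 11.89, 11.46 and 9.32 against 4.72 to 5.14. Control replicate 1 was highest and replicate 3 lowest in both, and the differences of -5.65 ± 0.68 and -5.99 ± 0.53 (adjusted p = 0.000667 and 0.00011) average over that gradient. Serpina1b, a close copy that may share probe signal with Serpina1c, was at 10.05, 9.70 and 7.35. Ttr, the thyroid hormone carrier, was at 11.73, 11.31 and 9.67 and Fabp1, the liver fatty acid binding protein, at 10.23, 8.20 and 5.92.

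Fga, a fibrinogen chain, was at 8.53, 8.45 and 5.47 in the same 3 controls, Apoc3, an apolipoprotein, at 8.0, 7.92 and 6.33, and Serpinc1, antithrombin, which was not on the list, at 8.91, 7.99 and 6.33. In the mutants Ttr was at 6.38 to 6.43 and these other liver genes were near background. All 8 were highest in control replicate 1 and lowest in replicate 3. With control replicate 3 alone all 8 kept their calls, and 22 of the 37 list members were called fallen, with a median of -1.06. With the covariate 2 members were called fallen and the median was 0.09. That covariate is the mean of these same 37 markers, so this outcome was largely fixed in advance and shows nothing about them.

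A gene was counted as variable between controls where its 3 control atria spanned at least 1 log2 unit. This held for 156 of all 18193 genes (0.857%), for 9 of 162 rises of at least 2-fold (5.56%) and for 54 of 242 such falls (22.3%). On the hepatocyte list 25 of 26 such falls were variable, and off the list 29 of 216 (13.4%). In 45 of the 54 the controls stood in the order of the liver markers, replicate 1 highest and replicate 3 lowest, and 24 of these 45 were on the hepatocyte list. That list does not hold every liver transcript. Serpinc1, Orm1, Mug1, Apoc1 and Fbp1 were off it, variable and in the same order, so the genes off the list were not free of liver transcripts. Of the 188 large falls that were not variable, 40 had that order. The losses of Gadl1, Hamp, Cnn1, Mrvi1, Slc7a7, Krt7 and Rxfp1 were among those with a control span under 1. Of these, Gadl1 and Mrvi1 had their controls in the order of the liver markers and the others did not.

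**Figure D4:**
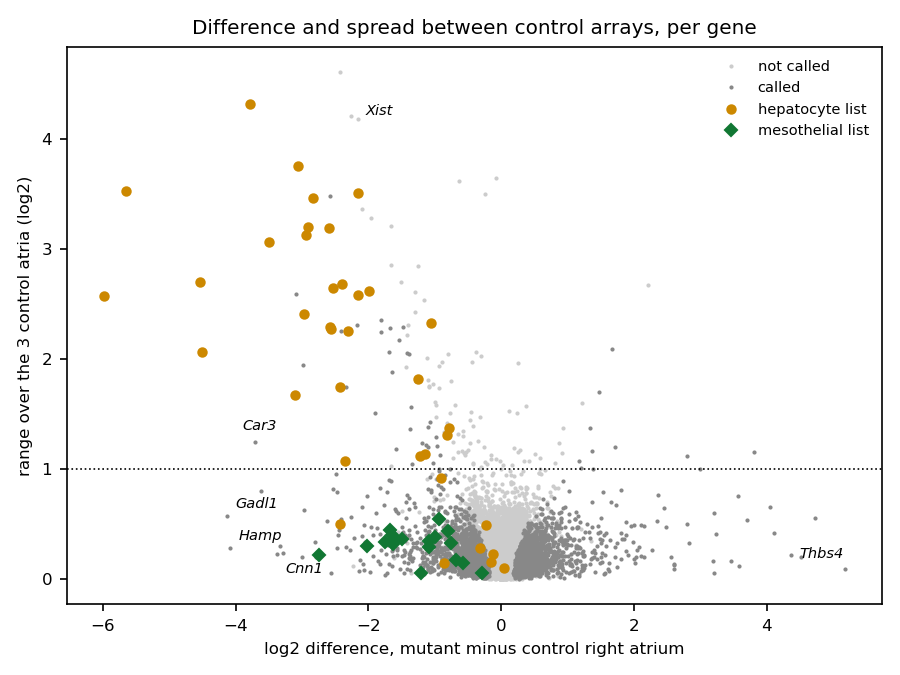
Log2 difference of each of 18193 genes (x axis) against the range of its 3 control atria (y axis, log2), with hepatocyte and mesothelial list members marked. The dotted line marks a range of 1, above which lie 29 of 37 hepatocyte list members and none of the mesothelial list.

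Of 20 macrophage markers 14 rose and none fell (median 0.61), but 2 rose without mutant replicate 2, 3 without control replicate 2, 4 without mutant replicate 3, 5 without control replicate 1 and 7 without control replicate 3. None was called with control replicate 3 alone, at a median of 0.61. The summed intensity was 23135, 32294 and 27439 in the mutants against 19116 to 20437 in the controls, so that mutant replicate 2 was highest. The lysosomal marker Cd68 was at 8.09, 8.66 and 8.39 against 7.5 to 7.73 and rose by 0.79 ± 0.13 (adjusted p = 0.00428). The costimulator Cd86 rose by 0.61 ± 0.12 (adjusted p = 0.00772).

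Of 44 interferon response and antigen presentation genes 8 rose and none fell (median 0.32), with 3 risen without control replicate 2, 4 without mutant replicate 2 and 5 without control replicate 1. None was called with control replicate 3 alone, at a median of 0.11, and with the covariate the median was 0.0017. Ifit2, an interferon-induced protein, was at 8.19, 9.08 and 8.72 against 7.61 to 7.75 and rose by 0.97 ± 0.21 (adjusted p = 0.0134), again highest in mutant replicate 2. The immunoproteasome gene Psmb10 rose by 0.47 ± 0.09 (adjusted p = 0.00964) and Ifi35 by 0.39 ± 0.07 (adjusted p = 0.00644). The complement gene C2 was at 7.58 to 8.02 against 8.70 to 8.94 and fell by 1.05 ± 0.11 (adjusted p = 0.000299). With control replicate 3 alone C2 kept its call and the 5 risen immune genes named here did not, and none of the 6 was called with the covariate.

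Among metabolic genes the changes were small. Of 38 genes of fatty acid uptake and oxidation 19 rose and 1 fell (median 0.27), or 50% and 2.63% beside 7.76% and 9.79% of all genes. The risen count was 7 without control replicate 1, 8 without mutant replicate 2 and 10 without mutant replicate 3. Eci1, an isomerase for unsaturated fatty acids, was at 12.00, 12.31 and 12.08 in the mutants against 11.45 to 11.53 in the controls and 13.10 to 13.20 in the ventricles. It rose by 0.64 ± 0.08 (adjusted p = 0.00101), and Etfb, which passes electrons from that pathway to the respiratory chain, by 0.46 ± 0.06 (adjusted p = 0.00106). The coactivator Ppargc1b was at 10.81 to 10.92 against 9.58 to 10.23 and rose by 0.93 ± 0.15 (adjusted p = 0.00343). All 3 lay between the control atria and the highest ventricle in every mutant.

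Of 83 genes of the respiratory chain and ATP synthase 18 rose and 1 fell (21.7% and 1.2%, median 0.12), beside 7.76% and 9.79% of all genes. The risen count was 28 with median centring, 11 with quantile normalisation, 5 without mutant replicate 2, 6 without mutant replicate 3, and 7 to 10 without control replicate 1, 2 or 3. Glycogen, glycolysis and creatine genes counted 14 risen and 6 fallen of 48, with 8 risen without control replicate 1 or mutant replicate 2 and 5 with control replicate 3 alone. With all arrays 29.2% of the glycogen, glycolysis and creatine genes rose and 12.5% fell. With the covariate no member of the fatty acid, respiratory chain or glycogen list was called. The mitochondrial creatine kinases split by isoform. The muscle form Ckmt2 was at 13.94, 14.19 and 14.05 in the mutants against 13.13, 13.39 and 13.39 in the controls and rose by 0.75 ± 0.09 (adjusted p = 0.000667), while the ubiquitous form Ckmt1 was at 5.61, 5.44 and 6.00 against 7.80, 7.63 and 7.40 and fell by 1.92 ± 0.15 (adjusted p = 5.03e-05). Hexokinase 1, Hk1, rose by 0.81 ± 0.07 (adjusted p = 6.4e-05) and the lactate transporter Slc16a1 by 0.50 ± 0.07 (adjusted p = 0.00145). None of the metabolic genes named was called with the covariate, and all were with control replicate 3 alone.

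Of 43 cytosolic ribosomal proteins none rose and 1 fell (2.33%), below the shares over all genes. Of 28 genes of the atrial secretory granule 2 rose and 2 fell (7.14% each), near those shares. The natriuretic peptide genes did not pass. Nppa was at 15.05 to 15.09 in the mutants and 15.09 to 15.11 in the controls, the top of the array, where equal intensities do not show equal amounts. Nppb was at 13.11, 13.47 and 14.04 against 13.30 to 13.35, a difference of 0.21 ± 0.23 (adjusted p = 0.551). Fibroblast markers counted 3 risen and 1 fallen of 20, endothelial markers 3 and 4 of 22 (13.6% and 18.2%), and neuron and Schwann cell markers 2 and 2 of 27. Of 18 endocardial markers none rose and 4 fell (22.2%, median -0.29), between 2 and 6 with 1 array left out. The fallen members included Dkk3 and Ednrb. The summed intensity of the endocardial list was 36263, 26441 and 28655 in the mutants against 40020 to 40874 in the controls, without overlap.

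**Figure D5:**
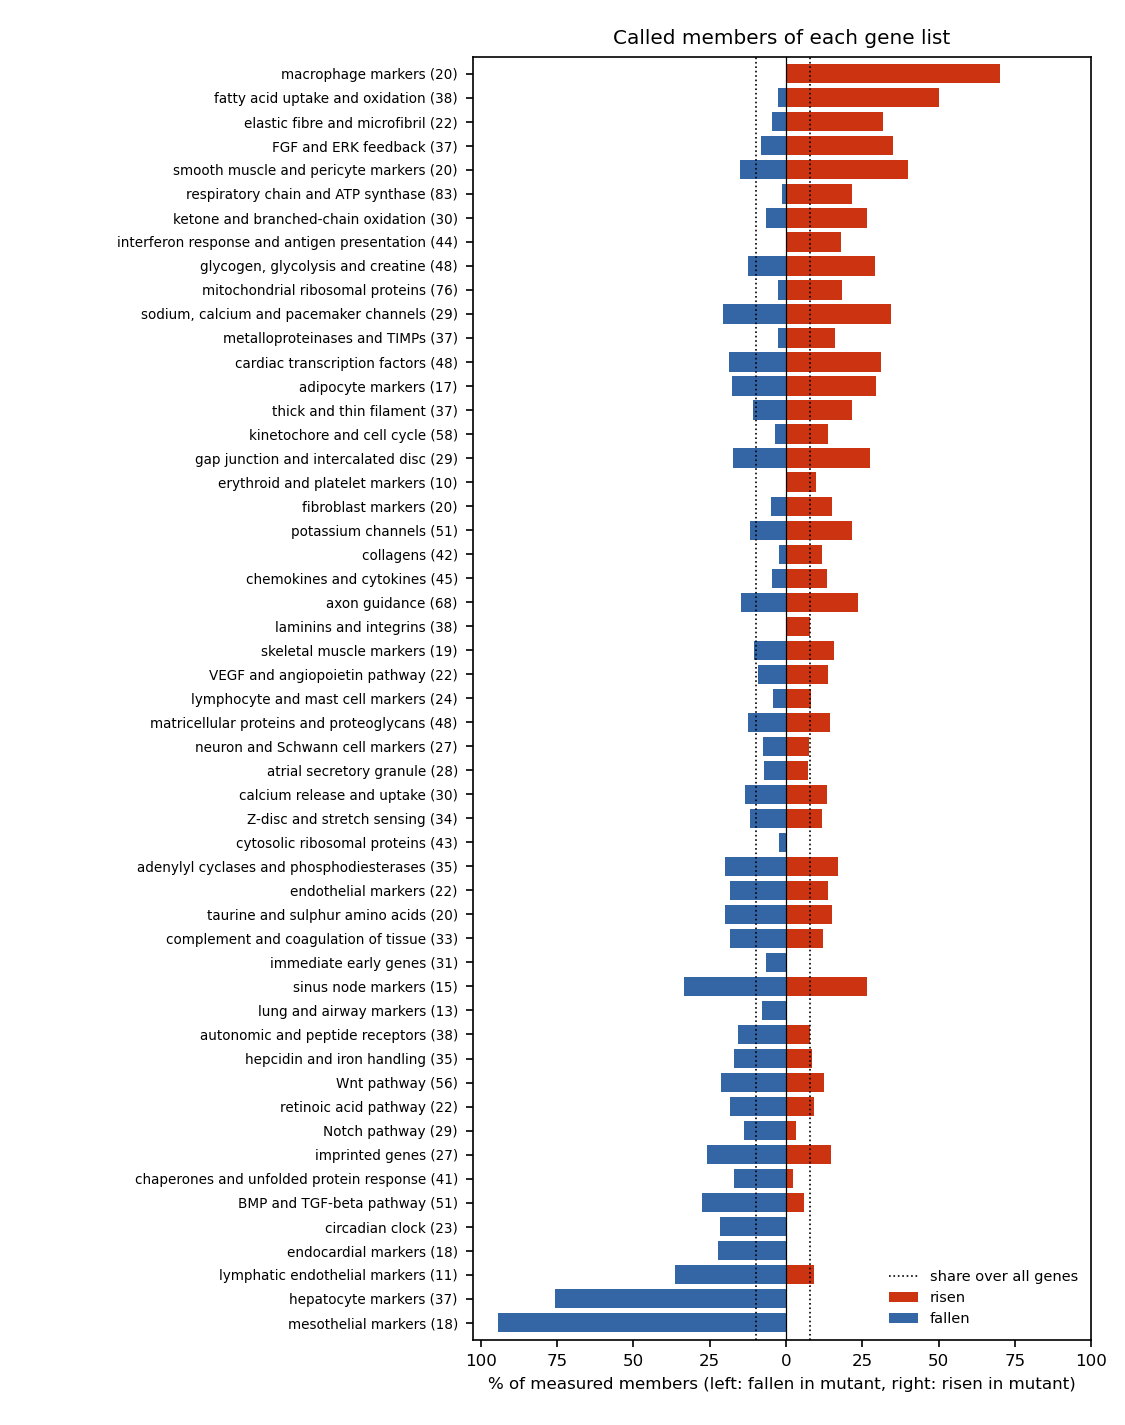
Share of each list's measured members (number in brackets) that were called risen (right) or fallen (left) in the mutant atrium, in order of the difference of both shares. Dotted lines mark the shares over all genes, 7.76% risen and 9.79% fallen, and the mesothelial and hepatocyte lists lie at the bottom with 94.4% and 75.7% fallen.

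Beside the ventricles, the large changes had different end points. Of the 162 rises of at least 2-fold, 69 ended with all mutants above all 3 ventricle arrays and 51 with all mutants below them. In the other 42 the mutants overlapped the ventricles, without always lying within their range. Of the 242 such falls, 111 ended above all ventricles and 33 below, and in 98 the mutants overlapped the ventricles. Thbs4, Slit2, Drd2, Fbn2, Sema3a and Etv5 were of the first kind among the rises, and Abcc9 of the second. These are counts of levels on shared control arrays and were not tested.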

How the data were processed

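RNA of 9 heart samples was labelled with a linear amplification kit and hybridised to Affymetrix mouse arrays, per the labels. The deposited files give each probe set's intensity on a linear scale, computed by the authors with RMA, per the submitters' processing notes. RMA corrects background and equalises the arrays' distributions, which can spread a change of many genes over others. Its software and version are not given in the sources used here, and neither is a genome build for the probe sets.

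The log2 was taken, with no further normalisation. Of 45101 probe sets, those left out were 64 controls, 932 of several genes and 9160 that had no gene name. For each gene the one of the remaining 34945 with the highest mean over 9 arrays was kept, giving 18193 genes named through GEO's platform annotation. A mean per group was fitted on all 9 arrays with limma 3.58.1 (lmFit and eBayes) in R 4.3.3, with 6 residual degrees of freedom, 2-sided, and p was adjusted over all genes by Benjamini-Hochberg. On simulated data 75 of 100 genes changed 1.5-fold and 93 of 100 changed 2-fold were recovered, with 8 false calls. The simulated noise was independent between genes, and far fewer genes changed than were called here. These figures are therefore not the error rates of this comparison.

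The named genes are the 15 largest rises and 15 largest falls of at least 2-fold without overlap of arrays, up to 5 members of each gene list with the smallest p, defining markers of cell types, and a set of heart genes. Not every gene the rule allows is described. Irx1 and Irx2 fall outside it. The members, the 54 lists and the rule were chosen with earlier results of these data known. Lists are described by counts and medians, without a set test. The alternatives are given in the closing section. Proteins were not used here. Motifs were searched with Python 3.11.15, and figures drawn with matplotlib 3.10.9 and pandas 2.3.3.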

Additional observations from a re-analysis of the deposited data

Results flagged for a closer look

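Some probe sets outside the gene comparison also differed. Among the 9160 probe sets without a gene name, 581 differed between mutant and control right atrium at an adjusted p under 0.05 in limma's test over all probe sets (6.34%). Of these, 258 were higher and 323 lower in the mutants. That share is below the 13.9% called among the 34945 named probe sets in a test of those alone. The largest fall, 1420465_s_at, was at 14.48, 13.35 and 11.59 in control replicates 1, 2 and 3 and at 3.97 to 4.95 in the mutants, with the controls in the order of the liver markers. The probe set 1440645_at was at 9.37, 9.55 and 9.73 in the controls and 5.77, 5.19 and 5.71 in the mutants, without that order. Of the rises, 1446392_at was at 8.84, 9.15 and 9.02 in the mutants against 5.67 to 5.73 in the controls and 5.66 to 5.89 in the ventricles, while 1447891_at was at 8.44 to 8.82 against 4.72 to 5.13 and at 10.59 to 10.92 in the ventricles.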

How the results depend on the processing

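The called genes kept their sign under each other fit that held them, except with the mean of all probe sets (99.4% did) and the hepatocyte covariate (96.4%). The number called, 3192 (1411 risen, 1781 fallen), was 168 (94 and 74) with the hepatocyte covariate, 755 (341 and 414) with control replicate 3 as the only control atrium, which was added after the data were seen and leaves fewer arrays, 1267 (525 and 742) at an adjusted p of 0.01, 984 (426 and 558) with a 1.5-fold minimum and 4861 (2812 fallen) over every probe set. Leaving out 1 array gave 1832 to 3074 calls, 781 to 1349 risen and 1051 to 1725 fallen. Without mutant replicate 2 it was 1832, without mutant replicate 3 1990, without control replicate 1 1972 and without control replicate 2 2013. With the replicate number as a block 2704 genes were called (1177 and 1527). In their deviations from group means, same-numbered mutant and control atria correlated at 0.125, 0.0512 and 0.0226, and differently numbered ones at -0.156 to 0.145. With 3 arrays per group this cannot tell whether the numbers pair the samples. Of the 151 genes named, 6 changed sign under some setting. These were Fabp1 (0.97) and Fga (0.15) with the hepatocyte covariate, Myh6 with median centring (0.014) and the mean of probe sets (0.016), Nppa with median centring (0.0012) and quantile normalisation (5.3e-15), Nppb without mutant replicate 3 (-0.033) and Eif2s3y without mutant replicate 1 (1.41) or control replicate 2 (0.05). Fabp1 and Fga are on the list whose mean is the hepatocyte covariate, so their change with it was largely fixed in advance. With 1 array left out Nppb ranged from -0.033 to 0.43 and Eif2s3y from -1.76 to 1.41. Nr2f6 passed with quantile normalisation (adjusted p = 0.0456), Acta2 without ventricle replicate 2 (0.0367), and Xist without mutant replicate 1 (0.0202) and with a covariate of Y-linked genes (0.00456). The cause was not tested. Signals near background or near the array's top limit the sizes of differences.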

Other observations

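Some gene groups not described above also held called members. Of 27 imprinted genes 4 rose and 7 fell, or 14.8% and 25.9% beside 7.76% and 9.79% of all genes. The risen count was 2 without control replicate 2 or any 1 mutant. Nap1l5, a histone chaperone-like gene, was at 10.29, 10.37 and 10.48 in the mutant atria against 8.68, 8.37 and 8.20 in the control atria and 5.44 to 5.63 in the ventricles, a rise of 1.96 ± 0.12 (adjusted p = 1.09e-05), and Mest rose by 1.06 ± 0.09 (adjusted p = 8.94e-05). The amino acid transporter Slc38a4 was at 6.81, 6.30 and 6.70 against 8.81, 8.84 and 8.46 and fell by 2.10 ± 0.19 (adjusted p = 0.00011), and the zinc finger gene Peg3 fell by 1.17 ± 0.17 (adjusted p = 0.00179). Of 23 circadian clock genes none rose and 5 fell, with quantile normalisation 2 and 4, and 2 fell without control replicate 2 or mutant replicate 2 and 3 without control replicate 1 or mutant replicate 3. Nr1d1, a repressor of the clock, fell by 0.55 ± 0.10 (adjusted p = 0.00533) and Clock by 0.43 ± 0.09 (adjusted p = 0.00891). Of 41 chaperones and genes of the unfolded protein response 1 rose and 7 fell, or 12 fell without mutant replicate 1. The endoplasmic reticulum cochaperone Dnajb9 was at 11.44 to 11.50 against 11.97 to 12.17 and fell by 0.57 ± 0.08 (adjusted p = 0.00114), and the stress factor Xbp1 fell by 0.41 ± 0.07 (adjusted p = 0.00501).

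Markers of nerves and vessels gave single large changes. The neuronal hydrolase Uchl1 was at 8.10, 8.96 and 8.43 in the mutants against 6.47 to 6.73 in the controls, a rise of 1.88 ± 0.19 (adjusted p = 0.000219), while the myelin gene Mbp fell by 1.02 ± 0.12 (adjusted p = 0.000667). Mmrn1, a multimerin of lymphatic vessels, was at 6.79, 7.61 and 7.02 against 4.95 to 5.46 and rose by 1.87 ± 0.22 (adjusted p = 0.000667), whereas 4 of 11 lymphatic markers fell, Nr2f2 among them, or 2 without control replicate 3 or mutant replicate 3. The capillary lipase anchor Gpihbp1 rose by 1.16 ± 0.16 (adjusted p = 0.0017) and Rgcc by 1.18 ± 0.17 (adjusted p = 0.00195). Over the 22 endothelial markers, however, 3 rose and 4 fell, with a median of -0.19. Cpne5, a calcium-dependent membrane-binding protein, was at 7.81, 7.72 and 7.87 against 9.72, 10.31 and 9.66 and fell by 2.09 ± 0.17 (adjusted p = 6.38e-05). The vasodilator peptide gene Adm fell by 1.11 ± 0.16 (adjusted p = 0.0017), and Actn3, the alpha-actinin of fast skeletal muscle, by 1.46 ± 0.11 (adjusted p = 4.76e-05). Nap1l5 and Actn3 were called with the hepatocyte covariate, and Clock, Gpihbp1 and Adm lost their calls with control replicate 3 alone.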
